A study of Mus musculus with 6 samples.

Results

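The G1 gene set described here comprises the D-type cyclins Ccnd1, Ccnd2 and Ccnd3, their partner kinases Cdk4 and Cdk6, the CDK inhibitors Cdkn1b, Cdkn2b, Cdkn2c and Cdkn2d, and Rb1, whose protein the kinases act on. Each of the 10 symbols was matched to 1 Ensembl row of the deposited table, which holds 57170 gene identifiers, and all 10 passed the filter on low counts that left 17707 genes for testing. The libraries came from whole mouse testes at postnatal day 5 and measure polyadenylated RNA. The tested genotype, named sKO in the labels, is a conditional knockout of Mdm2 in germ cells before meiosis and has 4 libraries, sKO-1 to sKO-4. The wild-type group has 2 libraries, WT-1 and WT-2. The Cre driver, alleles and strain were not given in the sources used here. No label ties a library to an animal of its own, and the p-values therefore reflect only how far these libraries differ from each other. The submitters' design statement gives each genotype 3 replicates; the grouping here follows the sample labels.

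In the G1 phase of the cell cycle, growth signals induce D-type cyclins, which bind and activate CDK4 and CDK6. The active kinases phosphorylate the retinoblastoma protein RB, which then releases E2F transcription factors, and E2F factors switch on genes of DNA replication. INK4 proteins such as p15, p18 and p19 (genes Cdkn2b, Cdkn2c and Cdkn2d) bind CDK4 and CDK6 and block them, whereas p27 (Cdkn1b) acts mainly on cyclin E with CDK2. In the neonatal mouse testis spermatogonia and Sertoli cells, the somatic nurse cells of the cords, both divide. MDM2 is the ubiquitin ligase that keeps the tumour suppressor p53 low, and p53 induces the CDK inhibitor gene Cdkn1a.

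The D-type cyclins are paralogs, and the start of their coding sequences is shown because the gene that fell and the 2 that did not pass the test share this stretch in part. The first 60 coding bases are given from the GENCODE M21 transcripts (GRCm38), and capitals mark the 15 bases that encode the leucine-cysteine-glutamate motif by which D-type cyclins bind RB.
Ccnd1: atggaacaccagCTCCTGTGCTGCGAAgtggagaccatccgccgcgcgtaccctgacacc
Ccnd2: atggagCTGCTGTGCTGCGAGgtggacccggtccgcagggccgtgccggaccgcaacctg
Ccnd3: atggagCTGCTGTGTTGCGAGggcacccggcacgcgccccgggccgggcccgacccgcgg
The motif starts at coding base 13 in Ccnd1 and at base 7 in Ccnd2 and Ccnd3. Over the aligned coding sequence Ccnd1 is 71.4% identical to Ccnd2 and 66.6% identical to Ccnd3, and the longest run of bases it shares exactly is 20 with Ccnd2 and 17 with Ccnd3. Cdk4 and Cdk6 are 68.8% identical over their coding sequence, with a longest shared run of 20 bases.

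The libraries held 17.99 to 18.39 M expected counts. Mdm2 itself was at 37.6 to 47.3 CPM in sKO and at 67.2 and 75.9 CPM in WT (log2 fold change −0.74, adjusted p = 0.0241), where CPM are counts scaled to a common library size. Mdm2 was no longer called when WT-1, WT-2, sKO-2 or sKO-3 was left out, at adjusted p = 0.171, 0.111, 0.0561 and 0.0739 in turn. All 12 genes of a pan-germ-cell marker list were called lower in sKO, where 2.3% of all genes were called lower and 0.124% higher. The summed level of the list was 95.9 to 157.8 CPM in sKO against 774.1 and 536.9 CPM in WT-1 and WT-2. Dazl, a germ cell RNA-binding protein, was at 29.0 to 45.5 CPM in sKO and at 218 and 155 CPM in WT, and the germ cell helicase gene Ddx4 averaged 20.1 CPM in sKO and 99.4 CPM in WT. Of the spermatogonial markers, 5 of 10 for undifferentiated and 5 of 6 for differentiating cells were called lower, with means of 10.3 CPM in sKO and 49.3 CPM in WT for Zbtb16 and of 1.85 CPM in sKO and 27 CPM in WT for Stra8. Of 15 Sertoli cell markers, Amh was called higher and the other markers did not pass the test, and their summed level was 6163 to 6794 CPM in sKO and 5307 and 6287 CPM in WT. Of the Leydig, endothelial, macrophage and erythroid marker lists 0 genes were called. At the shares called over all genes, 0 calls in lists this small says little. Of 5 peritubular myoid markers 1, Cnn1, was called lower (log2 fold change −1.73). Defining markers of the labelled tissue were present, with means of 175 CPM in sKO and 174 CPM in WT for Sox9 (Sertoli cells), 158 CPM in sKO and 131 CPM in WT for Cyp11a1 (Leydig cells) and 414 CPM in sKO and 469 CPM in WT for Acta2 (myoid cells). In whole tissue, fewer cells of a type and less RNA per cell cannot be told apart. Principal component 1, which held 38.1% of the variance, split the libraries into sKO-1, sKO-2 and WT-1 (subset 1) and sKO-3, sKO-4 and WT-2 (subset 2). Values within the subsets are given beside some of the results. No batch is named in the labels.

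Ccnd1 was the only gene of the set that passed the test, and it was lower in sKO testes. It was at 15.6, 14.1, 17.0 and 21.8 CPM in sKO-1 to sKO-4, against 41.3 and 45.4 CPM in WT-1 and WT-2. Every sKO library was below both WT libraries, and the highest sKO library, sKO-4, was still well below the lower WT library. The means were 17.1 ± 3.32 CPM in sKO (SD, n = 4) and 43.3 ± 2.88 CPM in WT (SD, n = 2), which gave −1.34 as the log2 fold change (SE 0.17, edgeR quasi-likelihood adjusted p = 0.0152), or 0.395 of the WT level. Cyclin D1 is the D-type cyclin most directly induced by growth factor signals in many cell types. The sums behind these values were 1230 counts over the sKO libraries and 1600 over the WT libraries. Ccnd1 ranked 88 of 17707 genes by p-value.

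The call of Ccnd1 rested on having both WT libraries. Without WT-1 its log2 fold change was −1.41 (adjusted p = 0.147), and without WT-2 it was −1.30 (adjusted p = 0.0628), in fits that called 0.00543% and 1.04% of all genes lower and 0.0109% and 0.0376% higher. It passed without any 1 of the sKO libraries. Within the library subsets, which hold 1 WT library each, its log2 fold change was −1.496 in subset 1 and −1.23 in subset 2. The subsets were drawn from these libraries' own values, so the values within them are given as a description. In subsets and in fits without a WT library, the spread was estimated from sKO libraries and taken to hold for the lone WT library.

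Among all 17707 genes tested, 2.3% were lower and 0.124% higher in sKO at an adjusted p under 0.05 (2.43% in either direction). In the G1 set 1 of 10 genes was lower and 0 were higher. At an unadjusted p under 0.05 the set had 2 lower genes, Ccnd1 and Cdk6, and 0 higher, where 8.91% of all genes were lower, 4.17% higher and 13.1% either. The libraries of the genotypes did not overlap at 3 of the 10 genes, with sKO below WT at Ccnd1 and Cdk6 and above WT at Ccnd3. Among all genes 23% did not overlap, 13.3% below and 9.79% above. The median log2 fold change of the set was 0.01, beside 0.03 for all genes tested.

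**Figure D1:**
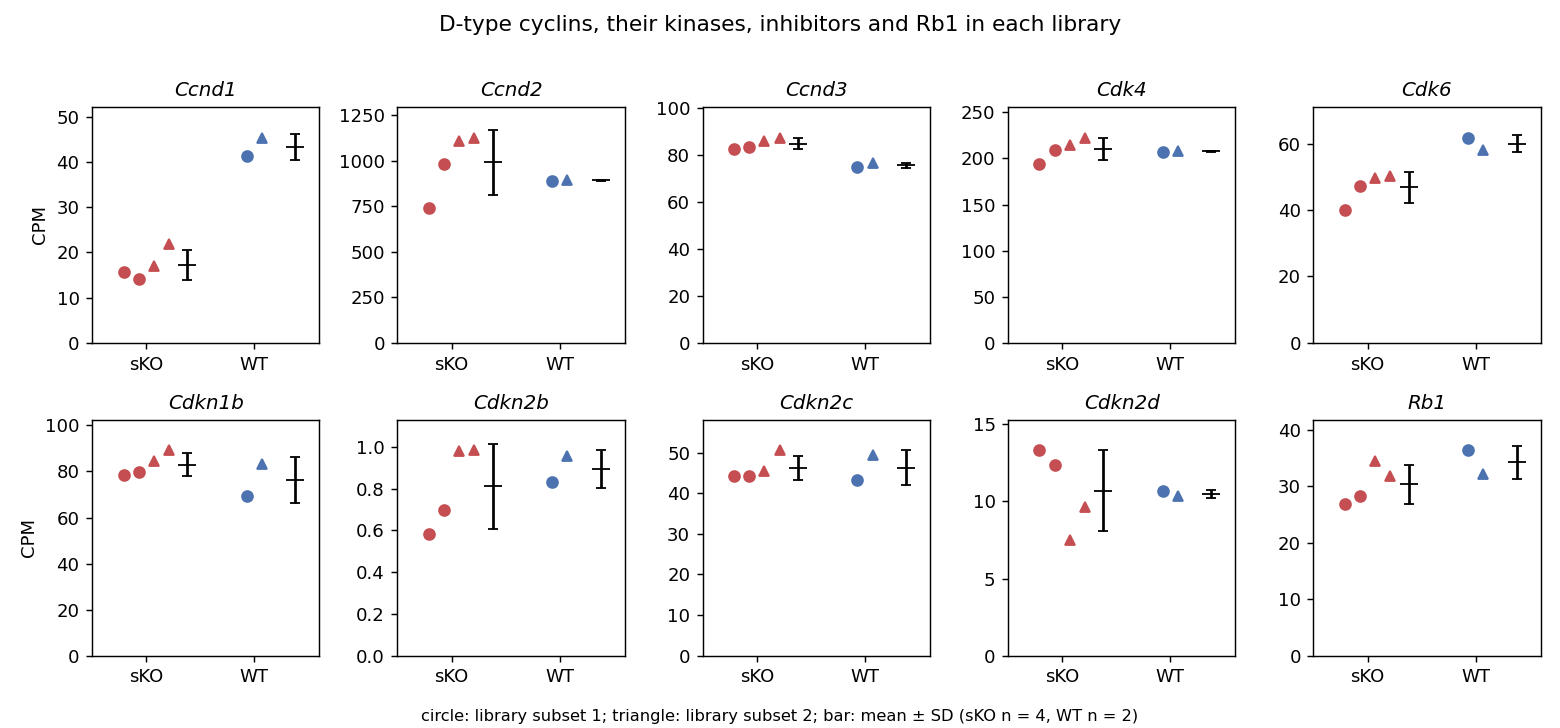
CPM of each gene of the G1 set (y axis, from 0) in the sKO libraries (red) and WT libraries (blue), with circles for subset 1, triangles for subset 2 and black bars for mean ± SD (sKO n = 4, WT n = 2). The sKO libraries of Ccnd1 lie between 14.1 and 21.8 CPM, below the WT libraries at 41.3 and 45.4 CPM, while the genotypes overlap at 7 of the 10 genes.

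Ccnd2, the most abundant gene of the set, did not pass the test. It was at 743, 983, 1110 and 1127 CPM in sKO-1 to sKO-4, against 889 and 895 CPM in WT-1 and WT-2. The WT libraries were nearly alike and fell inside the wide sKO range, in which sKO-1 was the lowest. The log2 fold change was 0.15 (adjusted p = 0.808, SE 0.17), with a 95% interval of −0.24 to 0.54. Within subset 1 it was −0.06, and within subset 2 it was 0.31 and passed the test (adjusted p = 0.0156), where 1.52% of genes were called higher and 3.22% lower. Whether these 2 values differ was not tested. Mice without cyclin D2 have small testes, and their ovarian granulosa cells divide poorly.

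Ccnd3 was slightly above WT in every sKO library without passing the test. It was at 82.5, 83.7, 86.1 and 87.5 CPM in sKO-1 to sKO-4, against 75.0 and 76.6 CPM in WT-1 and WT-2. The log2 fold change was 0.16 (adjusted p = 0.439, SE 0.08). It was −0.01 when library size was set to the summed Sertoli cell markers, a scaling that moved the median of all genes to −0.14.

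The relative amounts of the cyclins were compared within each library, where the scaling between libraries cancels. The ratio of Ccnd1 to Ccnd3 CPM was 0.189, 0.169, 0.198 and 0.249 in sKO-1 to sKO-4, against 0.551 and 0.592 in WT-1 and WT-2. The ratio of Ccnd1 to Cdk4 was 0.0674 to 0.0979 in sKO and 0.199 and 0.218 in WT. Both ratios separated the genotypes without overlap. The log2 fold changes of Ccnd3 (0.16) and Cdk4 (0.02) were small, so these ratios mostly restate the lower Ccnd1 level. Per kilobase of annotated exon, Ccnd1 made up 2.57 to 3.60% of the summed D-type cyclin level in sKO and 7.84 and 8.49% in WT. Ccnd2 made up 86.1 to 89.8% in sKO and 84.5 and 83.8% in WT, so it was the dominant D-type cyclin transcript in every library. The exact shares depend on exon lengths joined over all annotated transcripts of each gene.

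The log2 fold change of Ccnd1, −1.34, was smaller in size than those of the 12 pan-germ-cell markers, which ranged from −2.83 to −1.44. It was larger than that of Gfra1 (−1.29), a spermatogonial marker that passed the test. It was also larger than those of the spermatogonial markers Id4 (−0.74), Kit (−0.51), Foxo1 (−0.39) and Etv5 (−0.07), which did not pass. The same held for Nanos2 (−0.87, SE 1.08), which did not pass and rested on 18 counts in sKO and 17 in WT. All other listed spermatogonial markers fell further than Ccnd1, from Nanos3 (−1.59), which did not pass the test, to Stra8 (−3.87), which did. The ratio of Ccnd1 to Dazl was 0.342, 0.488, 0.584 and 0.497 in sKO-1 to sKO-4, and 0.190 and 0.293 in WT-1 and WT-2. Every sKO library was above both WT libraries in this ratio, which rests on 1 marker. Dazl, at a log2 fold change of −2.34, fell further than Ccnd1. The ratio of Ccnd1 to the summed pan-germ-cell markers was 0.0999 to 0.178 in sKO and 0.0533 and 0.0845 in WT. For Tdrkh (−1.44) and Gfra1 (−1.29), which fell less than Dazl, the ratio of Ccnd1 to the marker overlapped between the genotypes. The part that the lower germ cell transcripts have in the level of Ccnd1 was not tested.

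**Figure D2:**
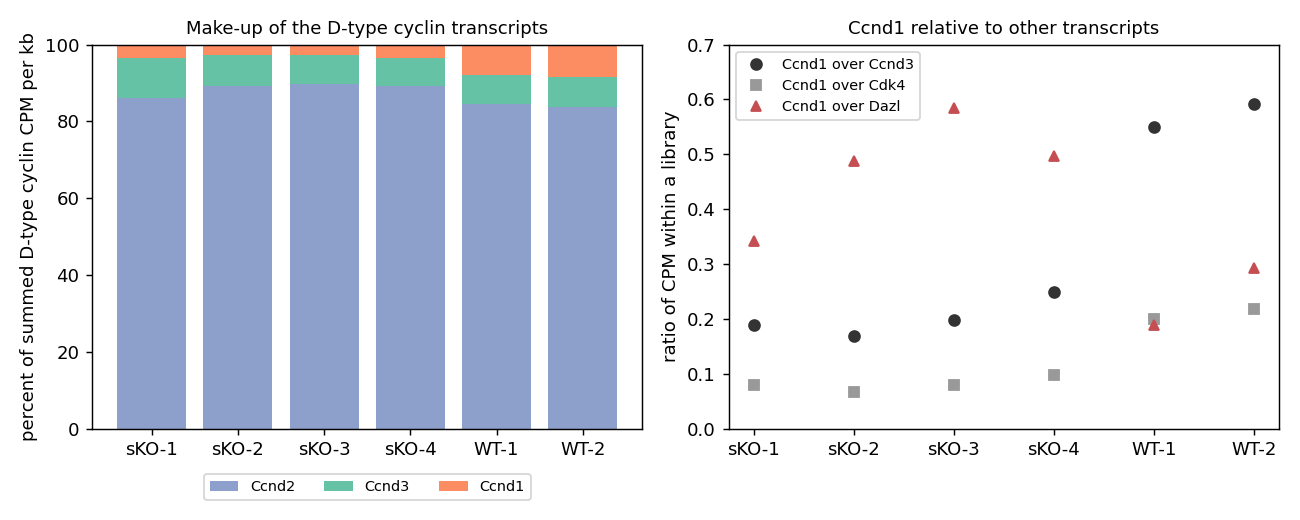
Left, percent of the summed D-type cyclin CPM per kilobase held by Ccnd2, Ccnd3 and Ccnd1 in each library (stacked bars). Right, ratio of Ccnd1 CPM to Ccnd3, Cdk4 and Dazl CPM in each library (y axis from 0); Ccnd1 over Ccnd3 is 0.169 to 0.249 in sKO and 0.551 and 0.592 in WT, and Ccnd1 over Dazl is 0.342 to 0.584 in sKO and 0.190 and 0.293 in WT.

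Of the kinases, Cdk4 differed least. It was at 193, 210, 215 and 223 CPM in sKO-1 to sKO-4, against 207 and 208 CPM in WT-1 and WT-2. The WT values lay inside the sKO range, and the log2 fold change was 0.02 (adjusted p = 0.969, SE 0.09), with a 95% interval of −0.18 to 0.22. CDK4 is the kinase partner of D-type cyclins in most dividing tissues.

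Cdk6, which shares the D-type cyclins with Cdk4, was lower in every sKO library than in both WT libraries but did not pass the test. It was at 40.1, 47.3, 49.6 and 50.2 CPM in sKO-1 to sKO-4, against 61.8 and 58.1 CPM in WT-1 and WT-2. The log2 fold change was −0.36 (adjusted p = 0.205, SE 0.11). With a term for the library subset, which called 8.65% of all genes lower and 4.97% higher (13.6% either), it passed at −0.36 (adjusted p = 0.0280). The subsets come from these libraries' own values and not from a label, so p-values of fits that use them can be too small. The log2 fold change was −0.52 within subset 1 (adjusted p = 0.0404), where 5.15% of genes were called lower and 1.53% higher, and −0.23 within subset 2. The ratio of Cdk4 to Cdk6 was 4.34 to 4.82 in sKO and 3.36 and 3.58 in WT.

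None of the INK4 or p27 genes of the set passed the test. Cdkn1b, which encodes p27 and limits Sertoli cell number in the mouse, was at 78.4, 79.7, 84.7 and 89.1 CPM in sKO-1 to sKO-4, against 69.4 and 83.4 CPM in WT-1 and WT-2. WT-1 was the lowest of all libraries, and WT-2 lay inside the sKO range. Its log2 fold change was 0.12 (adjusted p = 0.740, SE 0.11).

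Cdkn2c and Cdkn2d encode p18 and p19, the INK4 inhibitors whose combined loss makes male mice sterile. Cdkn2c was at 44.3, 44.3, 45.3 and 50.5 CPM in sKO-1 to sKO-4, against 43.3 and 49.3 CPM in WT-1 and WT-2. The groups covered nearly the same range, and its log2 fold change was −0.01 (adjusted p = 0.994, SE 0.10). Cdkn2d was at 13.3, 12.3, 7.51 and 9.65 CPM in sKO-1 to sKO-4, against 10.6 and 10.3 CPM in WT-1 and WT-2. Its sKO libraries lay on both sides of WT, above it in sKO-1 and sKO-2 and below it in sKO-3 and sKO-4. Its log2 fold change was 0.03 (adjusted p = 0.980, SE 0.24), with a 95% interval of −0.54 to 0.60. Within subset 1 it was 0.24 and within subset 2 it was −0.27, and neither passed the test.

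Cdkn2b, which encodes the TGF-beta-induced inhibitor p15, was near the lower limit of the data. It was at 0.582, 0.696, 0.982 and 0.982 CPM in sKO-1 to sKO-4, against 0.831 and 0.958 CPM in WT-1 and WT-2. These levels rest on 58 counts over the sKO libraries and 33 over the WT libraries. Its log2 fold change was −0.14 (adjusted p = 0.937, SE 0.39), with a 95% interval of −1.06 to 0.77. It was −0.40 within subset 1 and 0.03 within subset 2, and neither passed the test.

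Rb1 was at 26.9, 28.2, 34.5 and 31.8 CPM in sKO-1 to sKO-4, against 36.3 and 32.2 CPM in WT-1 and WT-2. The sKO libraries of subset 1 lay below both WT libraries, sKO-3 lay between the WT libraries and sKO-4 lay just below WT-2. The log2 fold change was −0.18 (adjusted p = 0.688, SE 0.14), with −0.42 within subset 1 and 0.04 within subset 2. It was −0.09 when WT-1 was left out and −0.29 when WT-2 was. RB restrains entry into S phase until the cyclin D kinases phosphorylate it.

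Levels were ordered by mean CPM per kilobase of annotated exon. The length joins the exons of all annotated transcripts of a gene, such as 4709 bases for Ccnd1 and 8775 for Ccnd3. It can exceed the length of the transcripts present, so the order depends on the annotation. In sKO the order was Ccnd2 (105), Cdk4 (64.7), Cdkn1b (18.2), Cdkn2c (17.2), Ccnd3 (9.68), Cdkn2d (6.79), Rb1 (5.04), Ccnd1 (3.64), Cdk6 (3.35) and Cdkn2b (0.583). In WT it was Ccnd2 (94.8), Cdk4 (63.9), Cdkn2c (17.2), Cdkn1b (16.8), Ccnd1 (9.20), Ccnd3 (8.63), Cdkn2d (6.66), Rb1 (5.69), Cdk6 (4.28) and Cdkn2b (0.643). Ccnd1 thus stood between Cdkn1b and Ccnd3 in the WT order and between Rb1 and Cdk6 in the sKO order. The libraries of neighbours overlapped in sKO for Cdkn1b and Cdkn2c, Cdkn2d and Rb1, Rb1 and Ccnd1, and Ccnd1 and Cdk6, and in WT for Cdkn2c and Cdkn1b. In all 6 libraries Ccnd2 and Cdk4 were the most abundant on this scale and Cdkn2b the least.

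**Figure D3:**
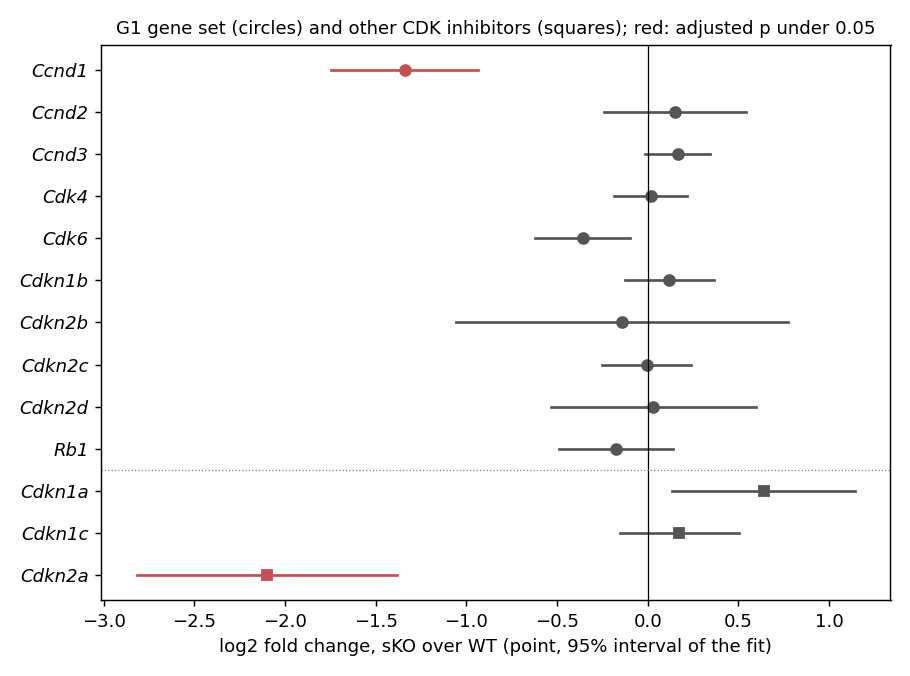
Log2 fold change of sKO over WT (x axis) for the G1 set (circles) and for Cdkn1a, Cdkn1c and Cdkn2a (squares), with the 95% interval of the edgeR fit, not adjusted for the number of genes. Red marks an adjusted p under 0.05: Ccnd1 at −1.34 and Cdkn2a at −2.10.

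The other CDK inhibitors were read from the same fit. Cdkn2a, whose locus encodes p16 and the MDM2-binding protein p19ARF from overlapping exons, was lower in sKO. It was at 2.59, 1.5, 1.39 and 2.54 CPM in sKO-1 to sKO-4, against 8.0 and 9.24 CPM in WT-1 and WT-2, with no overlap. Its log2 fold change was −2.10 (adjusted p = 0.0205, SE 0.31), on 145 counts in sKO and 318 in WT. Counts per gene do not separate its transcripts. Leaving out WT-1, WT-2 or sKO-2 ended the call, at adjusted p = 0.181, 0.0810 and 0.0616 in turn. The pan-germ-cell markers were lower in the same sKO libraries, by a median log2 fold change of −2.34, and their part in the level of Cdkn2a was not tested.

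Cdkn1a, which encodes the p53-induced inhibitor p21, was at 6.19, 5.09, 5.31 and 4.97 CPM in sKO-1 to sKO-4, against 3.43 and 3.49 CPM in WT-1 and WT-2. All sKO libraries lay above WT, but the log2 fold change of 0.64 (SE 0.22) did not pass the test (adjusted p = 0.239). Cdkn1c, which encodes p57, was at 32.6 to 40.5 CPM in sKO and at 28.0 and 34.8 CPM in WT, a log2 fold change of 0.18 (adjusted p = 0.702, SE 0.14), which was 0.03 when WT-1 was left out and 0.31 when WT-2 was.

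None of the 12 RB relatives and E2F factors passed the test. Of these, 7 had a log2 fold change below 0 (median −0.14), against 7907 of all 17707 genes. E2f5, a repressive E2F factor, was at 14.6 to 17.6 CPM in sKO and at 20.98 and 22.5 CPM in WT (log2 fold change −0.42, adjusted p = 0.202). Rbl2, which encodes the RB relative p130, was at 66.1 to 77.5 CPM in sKO and at 62.7 and 55.9 CPM in WT (0.27, adjusted p = 0.338). Tfdp1, the DNA-binding partner of E2F factors, was at 110 to 136 CPM in sKO and at 160 and 126 CPM in WT (−0.24, adjusted p = 0.527). A fit with a subset term called E2f5 (adjusted p = 0.0308) and Tfdp1 (0.0196) lower and Rbl2 higher (0.0138), 2 and 1 of 12 genes, where it called 8.65% of all genes lower and 4.97% higher. Tfdp1 had a log2 fold change of −0.06 when WT-1 was left out and −0.43 when WT-2 was, and Rbl2 had one of 0.16 without WT-2.

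Downstream of RB, none of the 8 genes of the cyclin E and CDK2 step passed the test (median log2 fold change −0.15). Cdc25a, the phosphatase that activates CDK2, was at 52.3 to 62.9 CPM in sKO and at 74.8 and 71.3 CPM in WT (−0.31, adjusted p = 0.214). The cyclin E genes Ccne1 and Ccne2 had log2 fold changes of −0.51 (adjusted p = 0.303) and −0.45 (adjusted p = 0.511). The libraries of the genotypes did not overlap at Ccne1, with 5.08 to 6.53 CPM in sKO and 8.10 and 7.66 CPM in WT, and overlapped at Ccne2. Ccne2 had a log2 fold change of −0.05 when WT-1 was left out and −0.79 when WT-2 was. With a subset term Cdc25a passed the test (adjusted p = 0.0351), 1 of the 8 genes, where 8.65% of all genes were called lower. None of the 9 genes that control turnover of p27 and D-type cyclins passed (median −0.02). The ubiquitin ligase subunits Fbxo4, Fbxo31 and Rbx1 were at 0.29, −0.24 and 0.11, and Fbxo31 was at −0.11 when WT-1 was left out and −0.38 when WT-2 was.

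The E2F target genes of S phase lay mostly below WT. All 20 had a log2 fold change below 0, against 7907 of all 17707 genes, with a median of −0.35 beside 0.03 for all genes. At 13 of the 20 every sKO library was below both WT libraries, against 13.3% of all genes. Only Mcm7, a subunit of the replicative helicase, passed the test, where 2.3% of all genes were called lower. It was at 144, 152, 142 and 148 CPM in sKO-1 to sKO-4, against 216 and 185 CPM in WT-1 and WT-2 (log2 fold change −0.45, SE 0.09, adjusted p = 0.0473), and its call ended without any 1 of the 6 libraries. With all 6 libraries the call also ended under limma-voom (adjusted p = 0.0524), RLE factors (0.0532), upper-quartile factors (0.0662) and plain library totals (0.0645), at log2 fold changes of −0.49 to −0.45. The helicase subunits Mcm3 and Mcm5 had log2 fold changes of −0.47 (adjusted p = 0.0642) and −0.46 (adjusted p = 0.0933). A fit with a subset term called 11 of the 20 lower, where it called 8.65% of all genes lower. The summed level of the list was 1366 to 1654 CPM in sKO and 1985 and 1929 CPM in WT.

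Of 12 genes of G2 and mitosis, 11 had a log2 fold change below 0 (median −0.20), against 7907 of all 17707 genes. In this list 1 gene passed the test, where 2.3% of all genes were called lower. That gene was Ccnb1, the mitotic cyclin B1, at 86.2, 86.3, 85.7 and 97.8 CPM in sKO-1 to sKO-4, against 128 and 129 CPM in WT-1 and WT-2 (−0.53, SE 0.09, adjusted p = 0.0276). Its call held without sKO-4 and ended when any other library was left out, WT or sKO (adjusted p = 0.0326 without sKO-4). Bub1 and Cdc20, of the spindle checkpoint, had log2 fold changes of −0.28 (adjusted p = 0.274) and −0.25 (adjusted p = 0.300). With a subset term both passed (adjusted p = 0.0445 and 0.0453), and 3 of the 12 genes were called lower, where 8.65% of all genes were. Within subset 1 Bub1 was at −0.46 and within subset 2 at −0.13. The germ cell markers were lower in the same libraries, and their part in these lists was not tested.

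**Figure D4:**
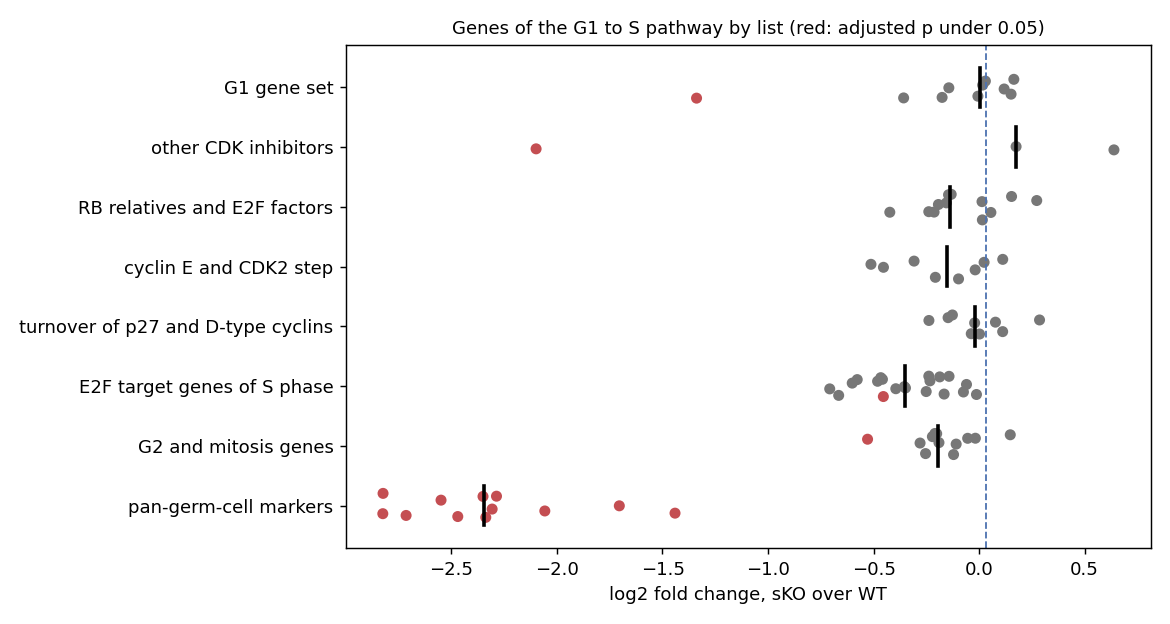
Log2 fold change of sKO over WT (x axis) for each tested gene of the lists named on the y axis, with red points for an adjusted p under 0.05, black bars for list medians and a dashed line for the median of all genes tested (0.03). Vertical scatter within a list carries no value. Ccnd1 and Cdkn2a lie far below the rest of their lists, and the 20 E2F target genes all lie below 0 with a median of −0.35.

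The genes whose pattern was most like Ccnd1, by Pearson correlation of log2 CPM over the 6 libraries among 11132 candidates, were Tubb4b (r = 0.998), Dennd2c (0.997), Psmd2 (0.996) and Utp4 (0.996). The beta-tubulin gene Tubb4b was at 202 to 247 CPM in sKO and at 347 and 357 CPM in WT. Those most like Ccnd2 were Zfp870 (0.994), Tmod3 (0.994), Adamts17 (0.986) and Kif21b (0.985). The 6 libraries share the genotype and subset structure described above, so r values this high are a description and carry no test.

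Several genes of the set overlap exons of a neighbour on the other strand in the GENCODE annotation, and the handling of strand in the counting was not given in the sources used here. The LTO1 gene overlaps exons of Ccnd1 and was at 16.2 to 20.6 CPM in sKO and at 21.8 and 18.6 CPM in WT (log2 fold change −0.15, adjusted p = 0.777). The neighbours thus differed in size of change, with overlapping LTO1 libraries and separate Ccnd1 libraries. Ccnd3 overlaps Bysl (log2 fold change −0.39), Cdk4 overlaps Tspan31 (0.18), and Rb1 overlaps Lpar6 (0.33) and Rcbtb2, which had no counts to read. Every sKO library was below both WT libraries at Bysl and above both at Lpar6. Neither gene passed the test (adjusted p = 0.403 and 0.318). Reads in such shared exons cannot be assigned with certainty. The processed pseudogene Ccnd3-ps, 96.3% identical to Ccnd3 over 881 bases, held 2.0 counts over all libraries, against 8929 for Ccnd3. Of the near copies of Cdk6, E030030I06Rik held 283.7 counts and Gm15482 held 131.8, against 5588 for Cdk6.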

How the data were processed

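The authors deposited 1 table of expected counts per gene for 6 libraries of polyadenylated testis RNA. The submitters' processing notes name fastp, STAR, RSEM and mm39; roles, versions, annotation and strand handling were not given in the sources used here. Estimated counts of this kind divide reads shared between genes. Symbols were matched by Ensembl identifier. Exon lengths, exon overlaps and coding sequences were taken with the coordinates of GENCODE M21 (GRCm38), a different build from the mm39 of the notes. Of the identifiers, 51742 (90.5%), with 99.2% of the counts, had a symbol.

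Counts were rounded, filtered with filterByExpr (minimum count 10), scaled by TMM and tested for sKO over WT with edgeR 4.0.16 (R 4.3.3) glmQLFit and glmQLFTest, two-sided, Benjamini-Hochberg adjusted over all 17707 genes, threshold 0.05, with no covariate. SE is the log2 fold change divided by the root of F, and log2 CPM have a prior count of 2. Code was tested on simulated data. Alternatives used DESeq2 1.42.0, limma 3.58.1 voom, other scalings and filters, left-out libraries, a replicate block and the library subsets. Near copies were sought with BLAST 2.17.0 (at least 200 bases, 85% identity). Libraries of 1 genotype differed by a chi-square of 4.07 to 24.8 per gene, above sampling noise, so none were merged.

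The gene set, lists and library subsets were chosen with earlier results of these data known. Named were all genes of the set, up to 3 genes of smallest p per pathway list, the other CDK inhibitors, Mdm2, defining markers of each cell type, and the 4 genes most correlated with Ccnd1 (smallest p) and Ccnd2 (highest CPM) among those of at least 5 CPM; Amh, Cnn1, the spermatogonial markers set beside Ccnd1 and the overlapping neighbours were named after their values were seen.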

Additional observations from a re-analysis of the deposited data

Results flagged for a closer look

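Of 31 named genes checked, 2 had sKO-4 lying apart from the other sKO libraries, by a gap rule that chance meets in about 1 in 20 groups. Cdkn2c was at 50.5 CPM in sKO-4, against 44.3 to 45.3 CPM in the other sKO libraries. Ccnb1 was at 97.8 CPM in sKO-4, against 85.7 to 86.3 CPM in the other sKO libraries.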

How the results depend on the processing

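Ccnd1 kept its direction under all 19 alternatives, at log2 fold changes of −1.56 to −1.23, and its call in 17. The calls lost were those without WT-1 and without WT-2. Some of the 17 fits used the library subsets, which were drawn from these libraries' own values, so their p-values can be too small. Over the G1 set, 156 of 189 alternative values kept direction and call, and 28 reversed direction. Only Ccnd1 was called as reported, so for the other genes keeping the call means staying uncalled. With 2 WT libraries the count of called genes depends on each: 22 genes were higher and 408 lower as reported, and leaving out 1 library gave 2 to 7 higher and 1 to 225 lower, with 0 to 1 lower in the G1 set. Without WT-1 66.7% of the few calls were higher, against 5.12% as reported. DESeq2 called 112 higher and 685 lower, and a library size from Sertoli cell markers 11 higher and 637 lower. A subset term called 880 higher and 1531 lower (36.5% of calls higher), with 2 lower in the G1 set. Subset 1 alone gave 282 higher and 946 lower (23% higher) with 2 lower in the set, and subset 2 alone gave 267 higher and 567 lower (32% higher) with 1 higher in the set. The cause of these shifts was not tested.

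Genes with log2 fold changes near 0 changed sign under some settings. With the Sertoli library size, which moved the median of all genes to −0.14, log2 fold changes were −0.025 for Ccnd2, −0.0063 for Ccnd3, −0.16 for Cdk4, −0.044 for Cdkn1b, −0.13 for Cdkn2d and −0.049 for Rbx1. Cdk4 was at −0.020 with plain library totals, and Cdkn2c at 0.0033 with upper-quartile factors and 0.0049 without a count filter. In subset 1 alone Ccnd2 was at −0.064, Cdk4 at −0.062 and Cdkn2c at 0.012. In subset 2 alone Cdkn2b was at 0.029, Cdkn2d at −0.27, Rb1 at 0.035 and Rbx1 at −0.0090. Leaving out 1 library gave −0.027 to 0.054 for Cdk4, −0.0079 to 0.23 for Cdkn1b, −0.096 to 0.062 for Cdkn2c, −0.092 to 0.17 for Cdkn2d and −0.017 to 0.22 for Rbx1. Cdkn2b, at 91 counts in all, gave no value under the filter of 1 CPM in 4 libraries.

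The replicate numbers 1 and 2 occur in both genotypes. Deviations of same-numbered libraries from their group mean correlated at 0.416 for number 1 and −0.441 for number 2. With 2 WT libraries the WT deviations mirror each other, so these values cannot show whether the numbers pair libraries. On those 4 libraries a replicate block called 19 genes higher and 268 lower, with Ccnd1 at −1.56, Ccnd2 at −0.074 and Cdk4 at −0.057; without the block 9 were higher and 187 lower, with Ccnd2 at −0.059 and Cdk4 at −0.056.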
